A study of Mus musculus with 6 samples.

Results

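Foxn1, Dlx3, Msx1, Msx2, Dsg4, Padi3, Dapl1 and Lrrc15 are 8 genes outside the keratin families that belong to hair and epithelial differentiation. They were taken by symbol from the deposited table of 54418 genes. They were chosen from the values of this same contrast, GATA6KO against Control, so their levels and fold changes are given here as a description, without a test. RNA was measured in mouse organoids, self-organising epithelial cultures, that the labels call AKP organoids, without spelling the name out. There were 3 libraries labelled GATA6KO and 3 labelled Control, all from AKP organoids, and the labels name no other allele, agent or time. They do not say whether a group is 1 clone, how the knockout was made or whether replicates were separate cultures. The tests below thus see the variation from library to library, and its technical part is not known.

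A hair grows from matrix cells at the base of the follicle, which leave the cell cycle and fill with hair keratins as they move up the shaft. In mouse hair, BMP and Wnt signals act on these cells through homeobox factors of the Msx and Dlx families and through the forkhead factor Foxn1, whose loss gives the nude mouse. The differentiating cells are held together by desmosomes that contain Dsg4. Their structural proteins are modified by peptidylarginine deiminases such as Padi3, which turn arginine into citrulline, and are then cross-linked by transglutaminases. BMP and Wnt signals and desmosomes also serve the intestinal epithelium, while hair keratins are not among its known products.

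The starts of 5 of these genes are shown because the data set them side by side. Msx1 and Msx2 are paralogs with opposite differences, Foxn1 has the smallest fold of the 6 genes whose libraries all lay above Control, and Dapl1 and Lrrc15 have the largest. Each window holds 250 bases before the start site and 50 from it on, 5′ to 3′ on the strand of the gene, from RefSeq on GRCm38.p6, the assembly of mm10. Capitals mark TAATTA, a core that Msx and Dlx proteins bind. The windows are chr11:78386559-78386858 (minus strand) for Foxn1, chr5:37824536-37824835 (minus) for Msx1, chr13:53472731-53473030 (minus) for Msx2, chr2:59484403-59484702 (plus) for Dapl1 and chr16:30283205-30283504 (minus) for Lrrc15.
Foxn1: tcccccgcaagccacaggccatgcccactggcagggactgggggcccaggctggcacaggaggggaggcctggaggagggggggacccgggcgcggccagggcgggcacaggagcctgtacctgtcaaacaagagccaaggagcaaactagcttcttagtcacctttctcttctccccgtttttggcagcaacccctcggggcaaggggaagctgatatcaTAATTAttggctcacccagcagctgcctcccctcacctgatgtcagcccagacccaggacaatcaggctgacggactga
Msx1: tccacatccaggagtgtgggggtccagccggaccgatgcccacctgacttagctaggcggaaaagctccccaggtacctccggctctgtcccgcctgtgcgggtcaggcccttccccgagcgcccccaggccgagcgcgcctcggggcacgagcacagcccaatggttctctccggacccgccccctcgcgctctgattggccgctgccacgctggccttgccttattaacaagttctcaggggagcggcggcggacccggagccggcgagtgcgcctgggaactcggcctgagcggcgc
Msx2: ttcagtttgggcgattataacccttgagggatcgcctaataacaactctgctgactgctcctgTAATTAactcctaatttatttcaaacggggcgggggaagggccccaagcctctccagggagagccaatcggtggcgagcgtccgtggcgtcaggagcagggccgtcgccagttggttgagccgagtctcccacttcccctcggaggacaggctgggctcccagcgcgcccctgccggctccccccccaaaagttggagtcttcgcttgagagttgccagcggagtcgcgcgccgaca
Dapl1: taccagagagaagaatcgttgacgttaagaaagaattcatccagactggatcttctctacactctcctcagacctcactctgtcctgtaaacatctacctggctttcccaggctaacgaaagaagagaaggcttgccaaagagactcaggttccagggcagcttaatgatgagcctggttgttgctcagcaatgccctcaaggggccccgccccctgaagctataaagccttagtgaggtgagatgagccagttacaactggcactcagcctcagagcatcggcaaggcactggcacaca
Lrrc15: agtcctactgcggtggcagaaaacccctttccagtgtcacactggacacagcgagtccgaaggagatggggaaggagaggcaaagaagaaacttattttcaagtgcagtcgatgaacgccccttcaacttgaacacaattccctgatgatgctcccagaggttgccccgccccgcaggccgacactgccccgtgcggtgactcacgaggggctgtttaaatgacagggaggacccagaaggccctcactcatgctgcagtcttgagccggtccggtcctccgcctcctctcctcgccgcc

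On both strands, 3 motifs were searched in these windows and in that of Padi3, 6 in all. Dlx3 and Dsg4 were not among them, so the counts below say nothing of their starts. The GATA motif, spelled AGATAA or AGATAG or TGATAA or TGATAG, was in 0 of the 6 windows and in 29.8% of 32851 RefSeq windows of the same length. The TCF/LEF motif, CTTTGAT or CTTTGAA, was also in 0 of 6, against 8.65% of all windows. The Msx and Dlx core, TAATTA or TAATTG, was in 2 of 6 against 12.4% of all windows. Its position was -29 from the start site in Foxn1 and -187 in Msx2, counted from the RefSeq start to the first base of the match. GENCODE M21, from which the gene coordinates below come, places the start elsewhere for both. The RefSeq start lies 50 bases upstream of it for Foxn1 and 294 bases inside the gene for Msx2, so that the match in Msx2 lies within the GENCODE gene. For the other 4 windows the starts differ by at most 2 bases. These are matches of letters only, and an absent match says only that those letters are not in that window. The GC content was 70.0% for Msx1, 62.7% for Foxn1, 61.0% for Msx2, 58.7% for Lrrc15, 56.7% for Padi3 and 51.0% for Dapl1, with a median of 52.7% over all windows.

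Library totals lay between 22973245 and 31328415 estimated counts. Gata6, the targeted gene, was lower in each GATA6KO library (edgeR adjusted p = 0.0486), with 14.3, 16.0 and 8.24 CPM in GATA6KO replicates 1 to 3 against 25.3, 23.2 and 28.0 CPM in Control replicates 1 to 3. CPM are counts relative to the library total (the usual CPM scale) after TMM scaling, which corrects for differences in composition. GATA6KO libraries spread more, with a median SD of a gene of 0.279 in GATA6KO and 0.0949 in Control on the log2 scale. Over 355 genes of chromosome 14, the median log2 ratio to Control was -0.90 in GATA6KO replicate 2, where GATA6KO replicates 1 and 3 had -0.09 and 0.04. None of the 8 genes lies on that chromosome, and no such median was computed for the chromosomes that hold them.

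Markers of intestinal epithelium other than Krt20 were abundant. Those of fibroblasts, immune cells, melanocytes and endothelium each summed to at most 45 counts in a library. The 7 intestinal markers, which include Epcam, Vil1 and Cdx2, summed to 2440 to 3040 CPM in GATA6KO and 3830 to 4060 CPM in Control. Krt20, of the same list, was low, at 1.43 ± 0.649 CPM in GATA6KO and 3.64 ± 0.485 CPM in Control (SD, n = 3 each). Of 10 fibroblast genes, which include Col1a1, Pdgfra and Fap, 0 passed the filter. Their counts summed to 21 to 24 in GATA6KO libraries and 13 to 25 in Control libraries, and Lum was at 0 in all 6 libraries. The 6 immune genes summed to 14 to 19 counts in GATA6KO and 9 to 18 counts in Control. The 6 melanocyte genes summed to 20 to 45 counts in GATA6KO and 21 to 29 counts in Control, with Tyrp1 and Mlana at 0. Among them Pmel alone passed the filter and was not called (edgeR adjusted p = 0.979). It had 36, 6 and 20 counts in GATA6KO replicates 1 to 3 and 18, 17 and 22 in Control replicates 1 to 3. The 4 endothelial genes summed to 8 to 20 and 8 to 15 counts in GATA6KO and Control. The 8 markers of epidermal keratinocytes summed to 19.7 to 48.1 CPM in GATA6KO and 15.6 to 16.8 CPM in Control, and 4 of them passed the filter. Krt5 and Trp63, which define the basal epidermal cell, had at most 2 and 4 counts in a library. Krt14, also a basal keratin, had 72, 762 and 340 counts in GATA6KO replicates 1 to 3 and 228, 278 and 258 counts in Control replicates 1 to 3, with groups that overlap. Krt10, a keratin of differentiating epidermis, held 83, 177 and 100 counts in GATA6KO replicates 1 to 3, against 67, 97 and 109 in Control replicates 1 to 3. Ivl, of the cornified envelope, held 31, 179 and 9 counts in GATA6KO replicates 1 to 3, against 11, 17 and 14 in Control replicates 1 to 3. Krt14, Krt10 and Ivl were not called (edgeR adjusted p = 0.689, 0.621 and 0.182). Lor, a protein of the cornified envelope, rose to 12.1 ± 1.21 CPM in GATA6KO against 2.81 ± 0.148 CPM in Control (SD, n = 3 each; edgeR adjusted p = 0.00194), and Cdh17, an intestinal cadherin, fell to 419 ± 32.9 CPM in GATA6KO against 741 ± 70.5 CPM in Control (SD, n = 3 each; edgeR adjusted p = 0.00746). Cdh17 was not called without Control replicate 2 or without Control replicate 3 (edgeR adjusted p up to 0.0518). Cdh1, also an intestinal marker here, fell by 0.44 on the log2 scale (edgeR adjusted p = 0.0246). It was not called when any Control library was left out (edgeR adjusted p up to 0.127). Epcam, Vil1, Cdx2, Krt20 and Lgals4 were not called. The part of these shifts in the values below was not tested. In bulk libraries such as these, fewer cells of a type and less RNA per cell cannot be told apart.

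All 8 genes passed the filter on low counts, and all 8 would have passed it on the Control libraries alone. In 6 of the 8 every GATA6KO library was above every Control library, in 1, Msx1, every GATA6KO library was below, and in 1, Padi3, the groups overlapped. Over all 14714 genes tested, the groups did not overlap in 40.8%, with GATA6KO above in 20.3% and below in 20.5%. The edgeR quasi-likelihood test, adjusted over all genes at a threshold of 0.05, called 12.4% of genes, 6.92% higher and 5.47% lower. It called 6 of the 8 genes higher and 0 lower, which follows from how they were chosen and is not read as a result.

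**Figure D1:**
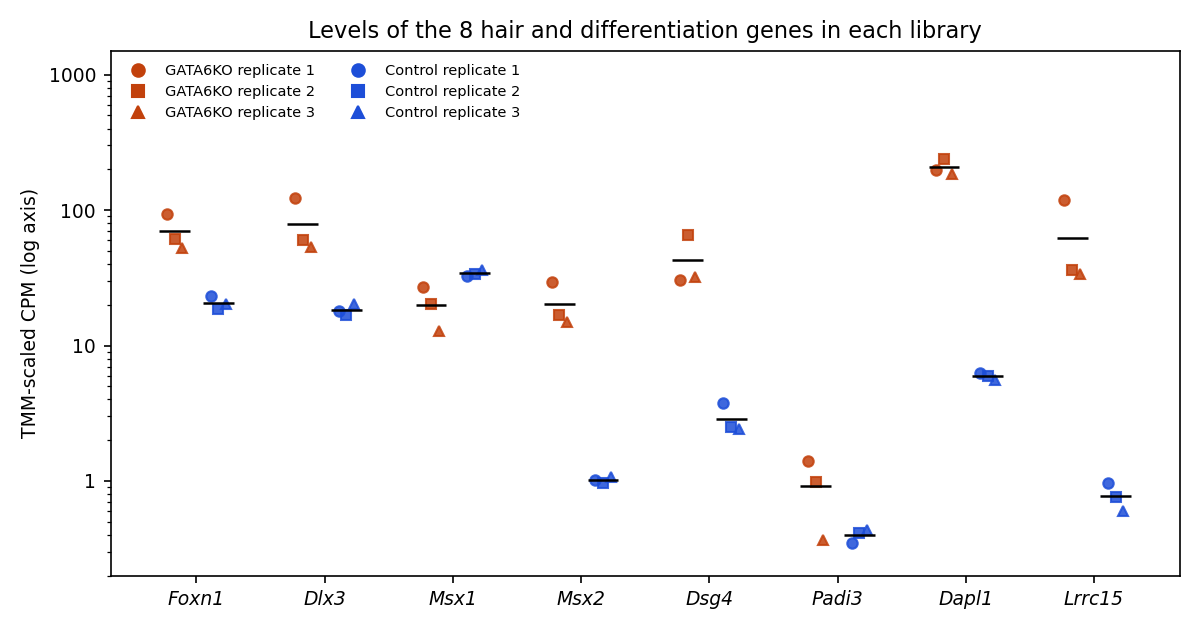
TMM-scaled CPM (log axis) of the 8 genes in each library, GATA6KO left of Control, with a symbol for each replicate and a line at the mean of each group. GATA6KO points lie above all Control points for Foxn1, Dlx3, Msx2, Dsg4, Dapl1 and Lrrc15 and below them for Msx1, and Padi3 overlaps.

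The regulators come first. Foxn1, the forkhead factor that drives hair keratin expression and the growth of thymic epithelium in mice, was higher in GATA6KO organoids and was also well expressed in Control. The gene (ENSMUSG00000002057) lies on chromosome 11, 78357577 to 78386558. It had 2819, 1871 and 1583 counts in GATA6KO replicates 1 to 3, against 531, 535 and 607 counts in Control replicates 1 to 3. This is 69.5 ± 21.9 CPM in GATA6KO and 20.7 ± 2.39 CPM in Control (SD, n = 3 each), a ratio of 3.36 and a log2 fold change of 1.75 (SE 0.23). Each GATA6KO library was at least 2.55 times the mean of Control, and replicate 1 was the highest.

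Dlx3, a homeobox factor of hair matrix cells whose human gene is mutated in tricho-dento-osseous syndrome, followed the same order of libraries. It lies on chromosome 11, 95120119 to 95125296 (ENSMUSG00000001510). It had 3638, 1848 and 1599 counts in GATA6KO replicates 1 to 3 and 409, 482 and 602 counts in Control replicates 1 to 3. The mean was 78.5 ± 37.5 CPM in GATA6KO and 18.2 ± 1.71 CPM in Control (SD, n = 3 each), with a log2 fold change of 2.11 (SE 0.32). GATA6KO replicate 1, at 122 CPM, lay well above GATA6KO replicates 2 and 3, at 60.6 and 53.3 CPM, and without it the log2 fold change was 1.64.

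The paralogs Msx1 and Msx2 encode homeobox repressors that BMP signalling induces in many epithelia, and mice without Msx2 lose and regrow their hair in cycles. They differed in opposite directions. Msx2 (ENSMUSG00000021469, chromosome 13, 53466884 to 53473074) had 875, 511 and 450 counts in GATA6KO replicates 1 to 3, where Control replicates 1 to 3 held 23, 28 and 32. The log2 fold change of Msx2 was 4.32 (SE 0.32), and the lowest GATA6KO library was at 14.8 times the mean of Control. Its mean level was 20.3 ± 7.77 CPM in GATA6KO and 1.02 ± 0.0487 CPM in Control (SD, n = 3 each).

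Msx1 (ENSMUSG00000048450, chromosome 5, 37820485 to 37824583) had 807, 618 and 383 counts in GATA6KO replicates 1 to 3, against 749, 982 and 1074 counts in Control replicates 1 to 3. Scaled, these are 27.0, 20.3 and 12.8 CPM in GATA6KO and 32.8, 34.0 and 35.8 CPM in Control. All GATA6KO libraries lie below Control, with a log2 fold change of -0.77 (SE 0.25), and replicate 1 lies close to Control at 0.788 of its mean. The Control libraries differed by at most 1.09 times, the GATA6KO libraries by 2.11 times.

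The make-up of the Msx family differed between the groups, whose family sums overlapped. Levels of genes were compared roughly, as CPM per kb of exon. The length used joins all annotated exons of a gene and may differ from that of the transcripts expressed. On this scale Msx2 took 48.6 ± 4.44% of the sum of Msx1, Msx2 and Msx3 in GATA6KO. In Control Msx2 took 2.71 ± 0.0947% (SD, n = 3 each). Msx1 took 50.6 ± 4.66% in GATA6KO and 96.9 ± 0.227% in Control. The family sum was 12.8 ± 4.61 CPM per kb in GATA6KO and 11.4 ± 0.50 CPM per kb in Control. Msx3, with 13 counts at most, was not tested.

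**Figure D2:**
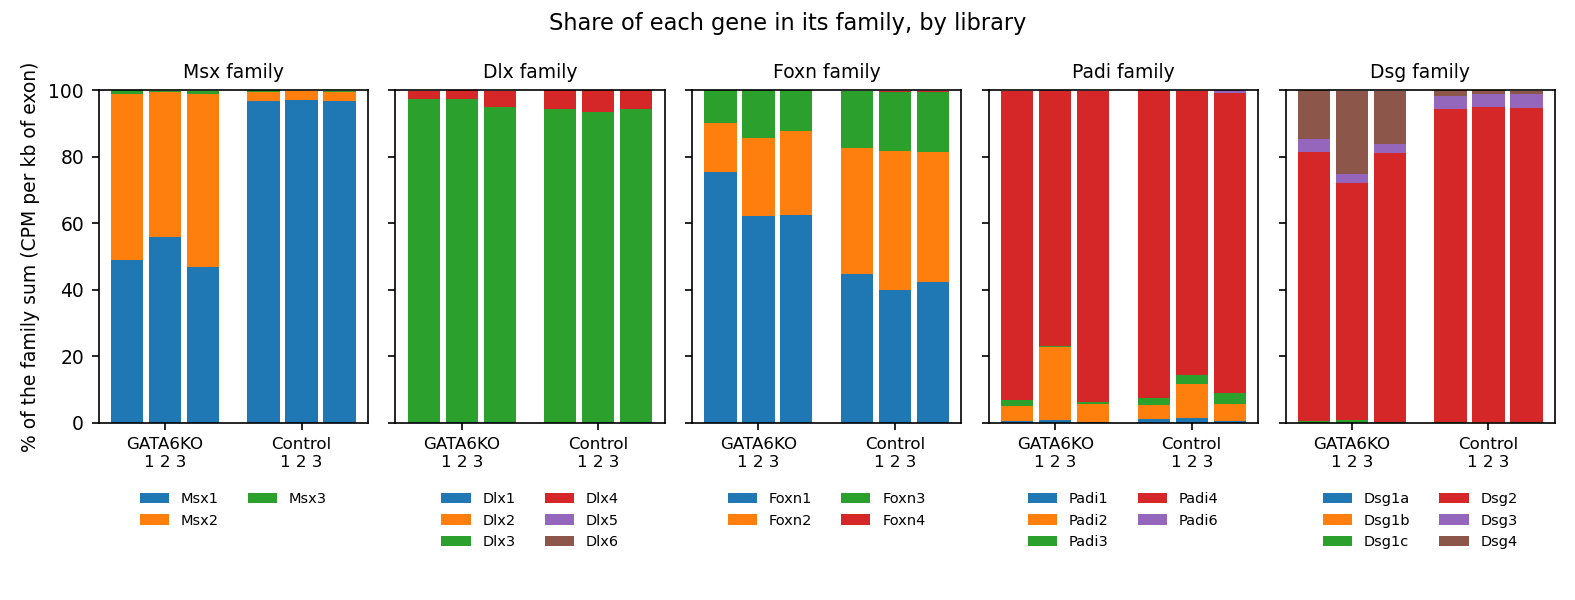
Share of each gene (%) in the summed CPM per kb of exon of its family, with 1 bar for each library, GATA6KO left of Control. Msx2 takes 43.6% to 52.1% of the Msx sum in GATA6KO and 2.62% to 2.80% in Control, and Dsg4 takes 14.7% to 25.0% of the Dsg sum in GATA6KO and 0.907% to 1.53% in Control.

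The differentiation genes follow. Dapl1, a small protein described in epithelial cells that start to stratify, was the most abundant of the 8 genes in GATA6KO and the most even. It lies on chromosome 2, 59484653 to 59505020 (ENSMUSG00000026989). It had 5914, 7332 and 5556 counts in GATA6KO replicates 1 to 3 and 144, 172 and 166 counts in Control replicates 1 to 3. The mean was 208 ± 28.9 CPM in GATA6KO and 5.94 ± 0.387 CPM in Control (SD, n = 3 each), a ratio of 35.0 and a log2 fold change of 5.13 (SE 0.14). Its highest GATA6KO library was 1.3 times its lowest, the lowest such ratio of the 8 genes.

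Lrrc15, a membrane protein with leucine-rich repeats best known from fibroblasts exposed to TGF-beta, had the largest fold of the 8 genes and, in CPM, the highest SD among GATA6KO libraries. It lies on chromosome 16, 30269302 to 30283256 (ENSMUSG00000052316). It had 3537, 1105 and 1004 counts in GATA6KO replicates 1 to 3, against 22, 22 and 18 counts in Control replicates 1 to 3. GATA6KO replicate 1 stood at 152 times the mean of Control, and replicates 2 and 3 at 46.7 and 43.2 times. The log2 fold change was 6.35 (SE 0.66), and 5.50 without GATA6KO replicate 1. By this value Lrrc15 ranked 27 of 14714 genes tested. The fibroblast genes given above were near 0 in the same libraries, and the cell source of the Lrrc15 RNA was not tested.

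Dsg4, the desmosomal cadherin of the hair cortex that is mutated in lanceolate hair mice, was highest in another library. It lies on chromosome 18, 20436175 to 20471821 (ENSMUSG00000001804). It had 906, 2001 and 953 counts in GATA6KO replicates 1 to 3 and 86, 72 and 72 counts in Control replicates 1 to 3. The mean was 42.6 ± 20.0 CPM in GATA6KO and 2.89 ± 0.763 CPM in Control (SD, n = 3 each), with a log2 fold change of 3.89 (SE 0.39), and 3.43 without GATA6KO replicate 2. GATA6KO replicate 2, at 65.6 CPM, stood above GATA6KO replicates 1 and 3, at 30.3 and 31.8 CPM, which lay close together.

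Padi3, whose human gene is mutated in uncombable hair syndrome, was the rarest of the 8 genes and the only one whose groups overlapped. It lies on chromosome 4, 140785365 to 140810648 (ENSMUSG00000025328). It had 42, 30 and 11 counts in GATA6KO replicates 1 to 3, against 8, 12 and 13 counts in Control replicates 1 to 3. GATA6KO replicate 3, at 0.367 CPM, lay within the Control range of 0.351 to 0.434 CPM, and GATA6KO replicates 1 and 2 at 1.40 and 0.984 CPM lay above it. The log2 fold change was 1.18 (SE 0.51), and counts this low limit what the libraries can show.

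Set in order by mean level per kb of exon, GATA6KO organoids had Dapl1 first at 306 ± 42.5 CPM per kb, then Dlx3 at 30.1 ± 14.4, Foxn1 at 21.6 ± 6.81, Dsg4 at 12.2 ± 5.74, Lrrc15 at 11.8 ± 9.07, Msx1 at 6.46 ± 2.30, Msx2 at 6.20 ± 2.37 and Padi3 at 0.266 ± 0.151 (SD, n = 3). From Dlx3 to Msx2 each gene overlapped the next in this order, while Dapl1 and Padi3 stood apart. In Control the order was Msx1 at 11.1 ± 0.487 CPM per kb, Dapl1 at 8.74 ± 0.571, Dlx3 at 6.99 ± 0.654, Foxn1 at 6.44 ± 0.744, Dsg4 at 0.83 ± 0.219, Msx2 at 0.31 ± 0.0149, Lrrc15 at 0.146 ± 0.0343 and Padi3 at 0.116 ± 0.0127. Here only Dlx3 overlapped Foxn1 and Lrrc15 overlapped Padi3. In Control organoids 4 of the 8 genes, Msx1, Dapl1, Dlx3 and Foxn1, were thus at 6.44 or more CPM per kb on average, and the others were below 1.

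The GATA6KO libraries did not carry the 8 genes in equal measure. Replicate 1 was the highest GATA6KO library for 6 genes (Foxn1, Dlx3, Msx1, Msx2, Padi3 and Lrrc15) and replicate 2 for 2 (Dsg4 and Dapl1). Replicate 3 was the lowest for 7, all but Dsg4. Over all genes tested, replicate 1 was highest in 37.5% and replicate 3 lowest in 31.3%. Among genes called higher, replicate 1 was highest in 29.6%, replicate 2 highest in 42% and replicate 3 lowest in 37.7%. The 8 genes summed to 620, 502 and 385 CPM in GATA6KO replicates 1 to 3, and 86.4, 79.9 and 86.2 CPM in Control replicates 1 to 3, a ratio of means of 5.96. Without Dapl1 the sums were 422, 262 and 200 CPM in GATA6KO replicates 1 to 3 and 80.1, 73.9 and 80.6 CPM in Control replicates 1 to 3, a ratio of 3.76.

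**Figure D3:**
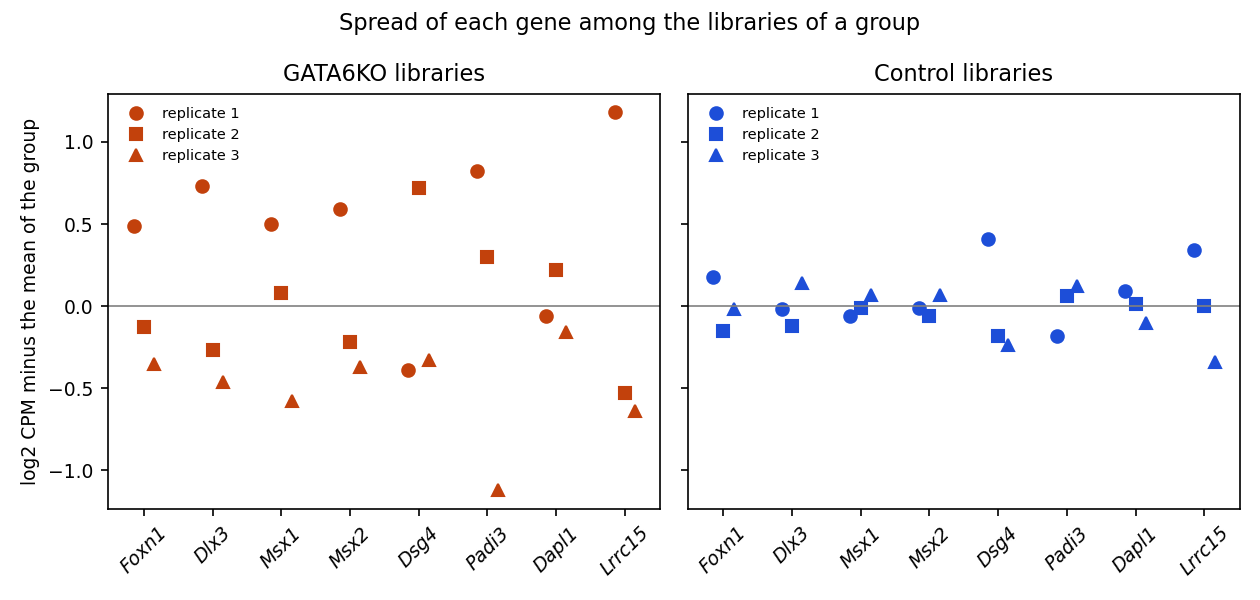
log2 CPM of each gene minus the mean of its group, for the 3 GATA6KO libraries (left) and the 3 Control libraries (right). In GATA6KO, replicate 1 lies highest for Foxn1, Dlx3, Msx1, Msx2, Padi3 and Lrrc15, and replicate 2 for Dsg4 and Dapl1.

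Hair keratins and keratin-associated proteins, the main products of the hair shaft, are set beside these sums. The 58 keratin-associated protein genes summed to 339, 189 and 148 CPM in GATA6KO replicates 1 to 3 and to 5.70, 3.95 and 3.87 CPM in Control replicates 1 to 3. Their order over the GATA6KO libraries, replicate 1 above 2 above 3, is also that of 6 of the 8 genes, Msx1, which was lower in GATA6KO, and Padi3, which overlapped, included. The 7 type I hair keratins were more even, at 771, 809 and 710 CPM in GATA6KO replicates 1 to 3 and 38.0, 25.2 and 24.1 CPM in Control replicates 1 to 3. The 6 type II hair keratins were highest in replicate 1, at 1170, 899 and 896 CPM in GATA6KO replicates 1 to 3 and 63.4, 34.9 and 36.5 CPM in Control replicates 1 to 3.

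By the root mean square difference of centred log2 CPM over the 6 libraries, where 0 is the same pattern, the nearest genes to each of the 8 were these, with the 8 genes themselves, keratin and keratin-associated genes and genes without a proper symbol left out. Foxn1 was nearest to Cadm4, an immunoglobulin-like adhesion molecule (0.06), and to the metallothionein Mt3 (0.08). Msx1 was nearest to Ildr1, a protein of tricellular junctions (0.05), and to the homeobox gene Hoxa11 (0.06). Dlx3 was nearest to Tent5b (0.14) and the inositol kinase Itpkb (0.22). Msx2 was nearest to Prr9, a proline-rich gene (0.20), and the lipid transporter Abcg1 (0.34). Prr9 had 1249, 793 and 697 counts in GATA6KO replicates 1 to 3 and 49, 43 and 65 counts in Control replicates 1 to 3.

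Padi3 was nearest to the runt factor Runx2 and the kinase Prkg2 (0.17 each). Dsg4 was nearest to Mybpc1, a myosin-binding protein (0.28), and the pentraxin Nptx1 (0.32). Dapl1 was nearest to Gprc5d (0.35) and Smpx (0.46). Lrrc15 was nearest to a row with the symbol Nnt (ENSMUSG00000116207; 0.55), which held 311, 207 and 174 counts in GATA6KO replicates 1 to 3 and 0 in each Control library, and then to Gprc5d (0.70). That row shares its locus with another row named Nnt (ENSMUSG00000025453), so its value is uncertain where counting could split their reads.

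Of 94 companion genes in 5 lists, 65 were tested, 11 rose and 6 fell by the edgeR test, 26.2% of those tested against 12.4% of all genes. Of those tested, 5 passed the filter only with GATA6KO, among them Dsg1c, Rptn and Hephl1, which were called higher. Without these 5, 8 rose and 6 fell of 60, or 23.3%. The lists were chosen with earlier results of these data known, so no share here or by list below is read as a result. The median log2 fold change of the tested companions was 0.07 and that of all genes tested 0.02. These lists hold paralogs, other regulators of the follicle, substrates and enzymes of citrullination and cross-linking, desmosome partners and other hair genes. Of the 17 called, 6 (Lef1, S100a3, Gprc5d, Mt4, Nectin1 and Zdhhc21) passed whichever library was left out. Leaving out Control replicate 2, or Control replicate 3, ended the call of each of the 11 others, with edgeR adjusted p of up to 0.163 (Bmp4).

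**Figure D4:**
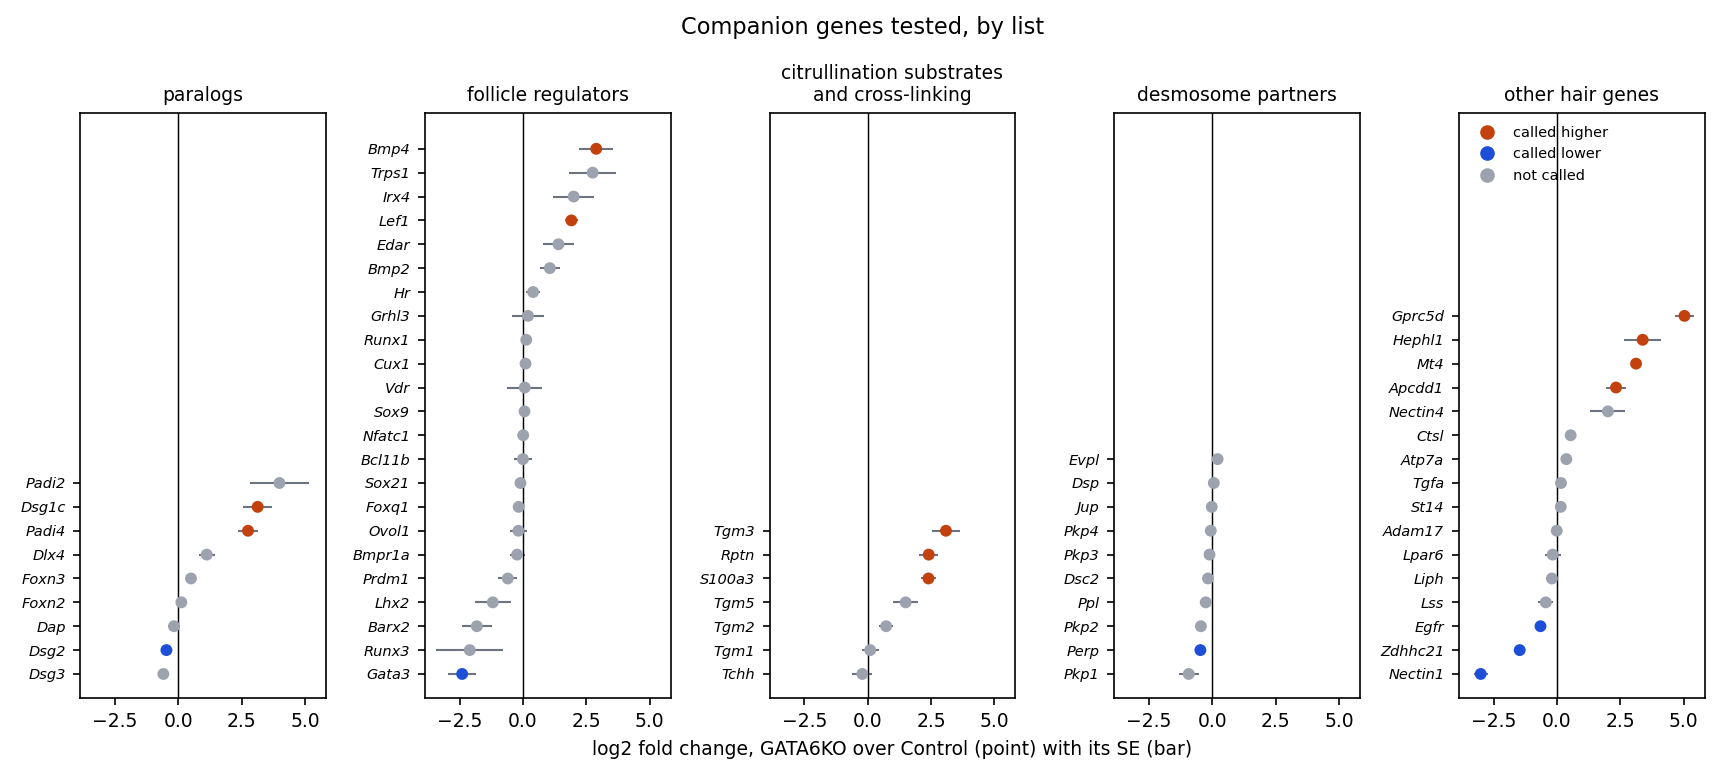
log2 fold change (GATA6KO over Control) of the 65 companion genes tested, by list, with the SE as a bar and colour for genes called higher or lower by edgeR. Gprc5d, at 5.03, lies highest and Nectin1, at -3.01, lowest.

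Among paralogs, 9 of 19 were tested, 2 rose and 1 fell. This is 33.3% of those tested against 12.4% of all genes, with a median log2 fold change of 0.50. The share counts Dsg1c, which passed the filter only with GATA6KO. The peptidylarginine deiminase Padi4, known for citrullination of histones, rose beside Padi3 on chromosome 4. It had 3168, 6129 and 2147 counts in GATA6KO replicates 1 to 3 and 482, 535 and 496 counts in Control replicates 1 to 3 (log2 fold change 2.75, SE 0.38, edgeR adjusted p = 0.00786). Padi4 took 88.0 ± 9.66% of the CPM per kb of the 5 Padi genes in GATA6KO and 89.5 ± 3.59% in Control, and Padi3 took 0.979 ± 0.658% in GATA6KO and 2.72 ± 0.582% in Control (SD, n = 3 each).

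Padi2, the most widely expressed deiminase, had 159, 1818 and 126 counts in GATA6KO replicates 1 to 3 and 23, 67 and 30 counts in Control replicates 1 to 3. It was not called (log2 fold change 3.99, edgeR adjusted p = 0.0689), but it was called without GATA6KO replicate 1 (4.45, adjusted p = 0.0377) and without GATA6KO replicate 2 (1.71, adjusted p = 0.0469). GATA6KO replicate 2 was also the highest for Padi4 and Padi1. Padi1 counts were 12, 41 and 3 in GATA6KO replicates 1 to 3 and 4, 7 and 2 in Control replicates 1 to 3. Padi6, an oocyte enzyme, had at most 2 counts.

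Dlx4, which lies next to Dlx3 on chromosome 11, measured 3.95, 2.07 and 3.37 CPM in GATA6KO replicates 1 to 3 and 1.36, 1.49 and 1.47 CPM in Control replicates 1 to 3. It was not called by edgeR (log2 fold change 1.12, SE 0.31, adjusted p = 0.0614), and was called by DESeq2 (adjusted p = 0.0189) and by edgeR without GATA6KO replicate 2 (0.0149). The other 4 Dlx genes had at most 9 counts in a library, so that Dlx3 made up 96.5 ± 1.37% of the family in GATA6KO and 93.9 ± 0.691% in Control (SD, n = 3 each). Foxn2 and Foxn3, forkhead factors of many tissues, had log2 fold changes of 0.12 and 0.50 and were not called (edgeR adjusted p = 0.478 and 0.0573), though Foxn3 was called by DESeq2 (adjusted p = 0.0137) and by edgeR without GATA6KO replicate 3 (0.0222). Dap, the paralog of Dapl1, had a log2 fold change of -0.17 (edgeR adjusted p = 0.671). Foxn1 took 66.7 ± 7.56% of the Foxn family in GATA6KO and 42.4 ± 2.32% in Control.

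Among desmogleins, Dsg2, the form of simple epithelia, fell by 0.47 on the log2 scale (SE 0.10, edgeR adjusted p = 0.0288). It measured 399, 445 and 380 CPM in GATA6KO replicates 1 to 3 and 553, 544 and 595 CPM in Control replicates 1 to 3. Dsg3, the form of basal stratified epithelium, was not called (log2 fold change -0.59, edgeR adjusted p = 0.066), though it was called by DESeq2 (adjusted p = 0.0148) and by edgeR without GATA6KO replicate 1 (0.0358). Dsg1c rose at low counts, which were 28, 63 and 19 in GATA6KO replicates 1 to 3 and 3, 5 and 3 in Control replicates 1 to 3 (log2 fold change 3.13, edgeR adjusted p = 0.02), and it passed the filter only with GATA6KO. Reads of the similar Dsg1a, Dsg1b and Dsg1c could be split in counting. Dsg4 took 18.6 ± 5.63% of the Dsg sum per kb in GATA6KO and 1.16 ± 0.33% in Control (SD, n = 3 each).

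Of 29 other regulators of the follicle, 23 were tested, 2 rose and 1 fell. This is 13.0% of those tested against 12.4% of all genes, with a median log2 fold change of 0.06. Lef1, the Wnt effector that helps to switch on hair keratins, rose to 56.3, 36.1 and 33.2 CPM in GATA6KO replicates 1 to 3 against 13.1, 11.4 and 9.04 CPM in Control replicates 1 to 3 (log2 fold change 1.91, SE 0.25, edgeR adjusted p = 0.00654). Bmp4, the ligand that drives matrix differentiation, rose to 15.7, 40.7 and 6.44 CPM in GATA6KO replicates 1 to 3 against 2.89, 3.50 and 2.10 CPM in Control replicates 1 to 3 (log2 fold change 2.89, edgeR adjusted p = 0.0372). Without GATA6KO replicate 2 its log2 fold change was 1.97, and limma-voom did not call it (adjusted p = 0.101). Gata3, a factor of the inner root sheath, fell to 3.74, 1.70 and 0.734 CPM in GATA6KO replicates 1 to 3 against 9.86, 9.64 and 13.1 CPM in Control replicates 1 to 3 (log2 fold change -2.40, edgeR adjusted p = 0.0365). Without GATA6KO replicate 1 the value was -3.15, and without replicate 2 it was not called.

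Hoxc13, the homeobox factor that binds hair keratin promoters, had 0 counts in all 6 libraries. A count of 0 allows up to 3 counts, or 0.0958 to 0.131 CPM by library, for counting error only. These CPM are relative to the library total without TMM scaling. Shh had 13, 0 and 0 counts in GATA6KO replicates 1 to 3 and 0, 1 and 1 in Control replicates 1 to 3. The most abundant regulators not called were Bmpr1a, a BMP receptor, at 131, 63.6 and 153 CPM in GATA6KO replicates 1 to 3 and 129, 136 and 142 CPM in Control replicates 1 to 3 (log2 fold change -0.23, edgeR adjusted p = 0.636), and Sox9 (0.06, adjusted p = 0.763). Bmpr1a and Bmp4 lie on chromosome 14, and the part of that chromosome's low values in GATA6KO replicate 2 was not tested.

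Of 13 substrates of citrullination and enzymes of cross-linking, 7 were tested, 3 rose and 0 fell. This is 42.9% of those tested against 12.4% of all genes, with a median log2 fold change of 1.5. The share counts Rptn, which passed the filter only with GATA6KO. Tgm3, the transglutaminase that cross-links trichohyalin, rose to 10.9, 4.92 and 23.3 CPM in GATA6KO replicates 1 to 3 against 1.75, 1.56 and 1.27 CPM in Control replicates 1 to 3 (log2 fold change 3.09, SE 0.57, edgeR adjusted p = 0.0194). It was highest in replicate 3, where 7 of the 8 genes were lowest, and its value was 2.37 without that library. S100a3, a calcium-binding protein of the hair cuticle and a substrate of PADI3 in human hair, rose to 3.33 ± 0.53 CPM in GATA6KO against 0.624 ± 0.143 CPM in Control (SD, n = 3 each; log2 fold change 2.40, SE 0.30, edgeR adjusted p = 0.00582). Rptn, a relative of filaggrin, rose by 2.41 (edgeR adjusted p = 0.0113) and passed the filter only with GATA6KO.

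Tchh, which encodes trichohyalin, the main substrate of Padi3 in the inner root sheath, was not called. It had 417, 667 and 190 counts in GATA6KO replicates 1 to 3 and 366, 491 and 467 counts in Control replicates 1 to 3 (log2 fold change -0.21, SE 0.40, edgeR adjusted p = 0.758). The groups overlapped, and GATA6KO replicate 2, the highest for Padi4 and Padi2, was highest for Tchh as well. Over all genes tested, replicate 2 was the highest GATA6KO library in 32.4%. Tgm1, the transglutaminase of the cornified envelope, was not called either (log2 fold change 0.10, edgeR adjusted p = 0.86), and it lies on chromosome 14.

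Of 13 desmosome partners, 10 were tested, 0 rose and 1 fell. This is 10% of those tested against 12.4% of all genes, with a median log2 fold change of -0.14. Perp, a membrane protein of desmosomes, fell by 0.47 (SE 0.09, edgeR adjusted p = 0.0258). Desmoplakin (Dsp), which ties desmosomes to keratin filaments, was the most abundant at 982 ± 43.1 CPM in GATA6KO and 942 ± 26.3 CPM in Control (SD, n = 3 each; log2 fold change 0.06, SE 0.09, edgeR adjusted p = 0.676). Pkp1, a plakophilin of stratified epithelia, measured 484, 168 and 194 CPM in GATA6KO replicates 1 to 3 and 516, 500 and 600 CPM in Control replicates 1 to 3, and was not called (log2 fold change -0.93, edgeR adjusted p = 0.16). Without GATA6KO replicate 1 it was called lower (-1.57, edgeR adjusted p = 0.00251). The desmocollins Dsc1 and Dsc3 had at most 3 and 4 counts in a library.

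Of 20 other hair genes, 16 were tested, 4 rose and 3 fell. This is 43.8% of those tested against 12.4% of all genes, with a median log2 fold change of 0.15. The share counts Hephl1, which passed the filter only with GATA6KO. Gprc5d, an orphan receptor of the hair cortex, rose to 581, 421 and 295 counts in GATA6KO replicates 1 to 3 against 13, 11 and 11 counts in Control replicates 1 to 3 (log2 fold change 5.03, SE 0.36, edgeR adjusted p = 0.00145). Mt4, a metallothionein of stratified epithelia, rose to 855 ± 186 CPM in GATA6KO against 98.7 ± 16.2 CPM in Control (SD, n = 3 each; log2 fold change 3.12, SE 0.21, edgeR adjusted p = 0.0012). Apcdd1, a Wnt antagonist mutated in human hypotrichosis simplex, rose by 2.33 (SE 0.40, edgeR adjusted p = 0.0158).

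Nectin1, an adhesion molecule mutated in a human ectodermal dysplasia, fell to 58, 67 and 112 counts in GATA6KO replicates 1 to 3 against 499, 579 and 641 counts in Control replicates 1 to 3 (log2 fold change -3.01, SE 0.27, edgeR adjusted p = 0.00232). The palmitoyltransferase Zdhhc21, mutated in depilated mice, fell by 1.47 (edgeR adjusted p = 0.001), Egfr fell by 0.65 (adjusted p = 0.0366), and Hephl1, a copper oxidase, rose by 3.38 (adjusted p = 0.0291) and passed the filter only with GATA6KO. These 3 were named as the rest of the 7 called, after their values were seen. Of those not called, Lss, a sterol synthase, had a log2 fold change of -0.44 and St14, a membrane protease, of 0.15 (edgeR adjusted p = 0.333 and 0.444). Without GATA6KO replicate 1 Lss was called lower (-0.85, edgeR adjusted p = 0.00834).

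The genes that lie next to the 8 on the chromosome were looked at after the values were seen. Of 16 nearest protein-coding neighbours, 1 on each side, 10 were tested, 1 rose (Padi4) and 0 fell. Over all genes tested, 12.4% were called, 6.92% higher and 5.47% lower, and the count of neighbours is not read as a result. The other 9 tested had log2 fold changes from -0.59 (Dsg3) to 1.12 (Dlx4). Pkp4 and Tanc1, on either side of Dapl1, had log2 fold changes of -0.06 and -0.03 (edgeR adjusted p = 0.626 and 0.862). Cpn2, 1803 bases from Lrrc15, had 8, 1 and 0 counts in GATA6KO replicates 1 to 3 and 0 in each Control library, and Gp5 on the other side had at most 10 counts. Sptlc1, beside Msx2, had a log2 fold change of 0.37 (edgeR adjusted p = 0.188).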

How the data were processed

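Poly(A) RNA was made into directional NEBNext libraries, per the labels' protocols. The authors deposited 1 table of estimated counts of genes, which are whole numbers with differing library totals. Salmon 1.3.0 and mm10 are named, per the submitters' processing notes. How transcripts were summed to genes, and with which annotation and strand setting, the sources used here do not give. Close paralogs may share reads.

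Groups came from sample titles. GENCODE M21 gave symbols, coordinates and exon lengths for 54166 of 54418 rows, and the 252 others held at most 0.00666% of a library's counts. The 8 genes, the companion lists and the cell type markers were chosen with earlier results of these data known. Named companions were the paralogs and, from each other list, up to 4 called genes of at least 1 CPM in a group by size of change and the 2 most abundant genes not called.

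edgeR 4.0.16 (R 4.3.3) kept genes by filterByExpr (10 counts, here 0.339 CPM before TMM scaling, in 3 libraries, and 15 in total). It scaled by TMM and fitted GATA6KO against Control by the robust quasi-likelihood test, with Benjamini-Hochberg adjustment over 14714 genes and a threshold of 0.05. The fit was tested on simulated data that gave a gene the same spread in both groups, unlike these libraries. With 50 genes changed at each fold, it recovered 8% at 1.5 times, 50% at 2 times, 76% at 4 times and 86% at 8 times. Of 119 simulated calls, 9 were false. The SE is the log2 fold change divided by the square root of F. Log2 CPM used a prior count of 2. Floors cover counting error only. Alternatives were RLE or library-total scaling, DESeq2 1.42.0, limma-voom (limma 3.58.1), no filter, a stricter filter at 1 CPM, a replicate block and leaving out each library.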

Additional observations from a re-analysis of the deposited data

How the results depend on the processing

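For each of the 8 genes the log2 fold change kept its sign under all 103 combinations of gene and alternative that could be fitted. Padi3 has no value under the 1 CPM filter. Over all genes 1823 were called. The count was 3238 with DESeq2 and 827 with the replicate block, and it ran from 332 (without Control replicate 3) to 4360 (without GATA6KO replicate 1) when 1 library was left out, with 425 and 389 without Control replicates 1 and 2. Of the companion genes, 17 were called, and 6 to 27 when 1 library was left out, lowest without Control replicate 2 or 3 and highest without GATA6KO replicate 1. Over all genes, 2344 and 1834 were called without GATA6KO replicates 2 and 3. Leaving out a Control library thus lowered the count of genes called, and leaving out a GATA6KO library did not. With 2 libraries in either group the spread is estimated from fewer samples. The part of the wider spread of the GATA6KO libraries in these counts was not tested. Scaling to the library total alone gave 65.7% of calls as higher, against 55.8% by TMM. Replicate numbers were not shown to pair the libraries. Deviations of same-numbered libraries correlated at -0.01, 0.074 and -0.092, and with the replicate block 12 companions were called, Dsg2, Gata3, Perp and Tgm3 among those lost (adjusted p = 0.0977, 0.0653, 0.0881 and 0.0501). Bmp4 and Tgm3 were not called by limma-voom (adjusted p = 0.101 and 0.0556), nor were Apcdd1, Bmp4 and Gata3 without a filter (0.085, 0.151 and 0.0583). Depth limits the genes of few counts, Padi3 among the 8.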
